A study of Pimephales promelas with 32 samples.

Results

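The 200 gene models whose transcript level varied most between unexposed control larvae of the fathead minnow (Pimephales promelas) were described across 32 single larvae. They were chosen by 1 rule. Counts were divided by the larva's total and scaled to CPM (counts per 1000000), models with a mean raw count from 50 to under 10000 over all larvae were kept, models annotated with certain retrotransposon polyprotein accessions or enzyme classes were set aside, and the 200 with the largest standard deviation (SD) of log2(CPM + 1) over the 11 controls were taken. The rule could choose from 16425 of the 26150 gene models in the count table. The choice used the control values themselves, so the spread between controls is given below as a description and was not tested.

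Whole larvae were sequenced after 48 h in 1 of 3 solutions. There were 10 larvae in bifenthrin at 3.2 µg/L, 11 in copper sulfate at 40 µg/L and 11 controls. Bifenthrin is a pyrethroid insecticide, a class that keeps the sodium channels of nerve cells open, and copper is an essential metal that is toxic to fish gills in excess. Larvae of all groups, controls included, were held in water with 0.002% DMSO at 25 °C, 10 to a beaker in 5 beakers per treatment. The treatment protocol gives an age of 96 h after hatching and the age label gives 48 h, and this difference is not settled here. The labels do not say which larvae shared a beaker, so larvae of a group may be less independent than their number and the p-values below may be too small.

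Whole-body RNA of a fish larva mixes transcripts of gut, liver, muscle, skin, nervous system and all other tissues. A transcript that is common in 1 tissue and rare elsewhere can therefore differ between whole larvae with the amount or state of that tissue, and fewer cells of a type cannot be told apart from less RNA per cell. Larvae of a cohort can also differ in sex, in feeding, in stage and in the alleles or gene copies they carry. In toxicity tests the spread between control animals sets how large a mean change must be before a test can call it. These are general facts, and the part that any of them plays in the levels below was not tested. The deposited table gives each model a number (FMg followed by digits) and, for most models, a protein accession. It does not pair them with gene names or roles, so the members are identified by model number and accession alone.

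Total counts per larva ranged from 10655113 to 17993699. Some larvae stood apart over the 16425 eligible models. Control replicate 14 was the lowest control for 28.1% of them and the highest for 10.1%. Copper sulfate replicate 2 was the lowest copper sulfate larva for 33.2% of them and the highest for 11.5%. Counts that rest on the groups are also given without these 2 larvae, chosen with the values in view. The 200 members took 0.768 ± 0.136% of all counts in the bifenthrin group (SD, n = 10), 0.738 ± 0.150% in the copper sulfate group (SD, n = 11) and 1.03 ± 0.349% in the controls (SD, n = 11). The lowest control share was 0.531%, in replicate 14, and the highest was 1.73%, in replicate 3.

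The values that chose the members are given first, as a description. Their SD of log2(CPM + 1) in controls had a median of 1.16 and ranged from 0.892 to 2.96, beside a median of 0.242 over the eligible models. The highest control exceeded the lowest by a median factor of 11.3 on the CPM + 1 scale, against 1.73 over the eligible models. The largest SD that Poisson counting alone gives to any member was 0.178, and every member's SD was at least 5.08 times its own counting SD. That limit covers counting error only. Just inside the threshold stood FMg013449 and FMg011181 with SDs of 0.894 and 0.892, and just outside stood FMg025292 (Q3U7R1) and FMg020889 with 0.891 and 0.890, so the edge of the list is arbitrary.

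Of the 12 members that varied most, 10 had larvae at separate levels with an empty interval between them. The most variable member, FMg019919, carries no accession. It had 6.86, 690 and 1316 CPM in bifenthrin larvae (lowest, median, highest), 2.71, 276 and 1234 CPM in copper sulfate larvae, and 5.72, 829 and 1976 CPM in controls. A total of 4 larvae lay at 2.71 to 6.86 CPM and the other 28 at 108 CPM or more. The low larvae were bifenthrin replicate 4, copper sulfate replicate 8 and control replicates 8 and 10. FMg019920, FMg019904 and FMg019925, which also carry no accession, were low in the same 4 larvae. Between the low and high larvae the empty interval spanned 15.7-fold for FMg019919, 9.29-fold for FMg019920, 8.58-fold for FMg019904 and 12.1-fold for FMg019925. Each treatment thus had low and high larvae. For FMg019919 the ranges overlapped, but control replicates 3, 4, 7 and 13 lay above every treated larva. The numbers of these 4 models are close to each other, but the table gives no positions, and how reads that match several similar models were counted is not given in the sources used here.

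FMg024798 and FMg020300 share the accession F1R5H7 and were also found at either a high or a low level. FMg024798 had 0.538, 0.613 and 60.5 CPM in bifenthrin larvae (lowest, median, highest), 0.415, 1.03 and 93.1 CPM in copper sulfate larvae, and 0.751, 63.9 and 96.4 CPM in controls. Over all larvae, 18 lay at 1.37 CPM or less and 14 at 35.3 CPM or more. The high larvae were 1 of 10 bifenthrin larvae, 5 of 11 copper sulfate larvae and 8 of 11 controls. FMg020300 was high in the same 14 larvae, with at least 20.8 CPM there and at most 0.787 CPM in the others. Because the models share an accession, reads may have been divided between them and they do not count as independent. The mean of FMg024798 was lower in bifenthrin larvae than in controls (log2 fold change -3.09 ± 1.03 SE, edgeR adjusted p = 0.0169), whereas the difference between copper sulfate larvae and controls was smaller than its error (-0.59 ± 0.88 SE, edgeR adjusted p = 0.798). Without bifenthrin replicate 5, the only high bifenthrin larva, the difference from controls was -5.83. Within lane 7 alone the value was -2.25 and was not called (edgeR adjusted p = 0.218). Against copper sulfate the bifenthrin value was -2.50 ± 1.03 (SE, edgeR adjusted p = 0.0622), and without bifenthrin replicate 5 it was -5.19 and passed (edgeR adjusted p = 0.000648). Since that larva was singled out by its own level, the smaller p-value is no separate support for a difference. The bifenthrin value against copper sulfate also passed with DESeq2 at -2.84, within lane 6 alone at -5.48, and without copper sulfate replicate 6, 8 or 11. Lane 6 alone also lacks bifenthrin replicate 5, which was in lane 7. In all, 6 of 42 alternatives passed. The difference was smaller and not called with limma-voom (-1.59, adjusted p = 0.517) or within lane 7 alone (-1.11, edgeR adjusted p = 0.557).

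FMg013095 (Q7ZTT9) was high in a few larvae only. It had 30.2, 38.4 and 48.7 CPM in bifenthrin larvae (lowest, median, highest), 26.5, 35.8 and 675 CPM in copper sulfate larvae, and 17.6, 53.3 and 1158 CPM in controls. The 5 high larvae were control replicates 2, 5, 7 and 11, between 938 and 1158 CPM, and copper sulfate replicate 5 at 675 CPM. The other 27 larvae, among them all 10 bifenthrin larvae, lay at or below 55.4 CPM. The SD of log2(CPM + 1) was 0.214 in bifenthrin larvae, the smallest of any member there, 1.3 in copper sulfate larvae and 2.51 in controls. FMg001010 (A9C3T3) was raised in the same 5 larvae, with 104 to 141 CPM in the 4 controls and 64.9 CPM in copper sulfate replicate 5, while all other larvae had at most 33.9 CPM.

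FMg011093 (B8A615) showed clusters of levels within each treatment. In bifenthrin larvae it was at 3.5 and 3.75 CPM in replicates 8 and 13, at 53.2 to 54.6 CPM in replicates 5, 7 and 14, and at 98.6 to 105 CPM in the other 5. It was at 1.97 to 2.92 CPM in 3 copper sulfate larvae and at 39.8 to 55.2 CPM in the other 8. In controls it was at 2.22 to 3.55 CPM in 5 larvae and at 41.1 to 109 CPM in the other 6. Low larvae were thus present in every treatment, and the intermediate and high clusters of bifenthrin larvae were separated by more than their own widths.

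In all, 14 members had an empty interval of at least 4-fold on the CPM + 1 scale with 3 or more larvae on each side of it. They are 7% of the members, beside 20 of the eligible models (0.122%), a difference that the choice of variable models favours. The 4 models led by FMg019919 divided the larvae alike, as did the 2 with accession F1R5H7. The others did not. FMg021198 (Q8BFX6, O35495) was at 86.2 CPM or more in 5 bifenthrin larvae, 4 copper sulfate larvae and 3 controls and at 7.44 CPM or less in the others. FMg024087 (J3QKX5) was at 9.96 CPM or more in 8 bifenthrin larvae, 8 copper sulfate larvae and 4 controls. FMg025691 (Q5CZR5) was at 17.8 CPM or more in 3 bifenthrin larvae, 2 copper sulfate larvae and 1 control, and at 0.183 CPM or less in all others. This last model was the only member that the abundance filter of the tests left out, so 199 of the 200 were tested. A count of 0 in at least 1 control together with 50 or more counts in another was found for 13 members and for 14 of all eligible models.

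**Figure D1:**
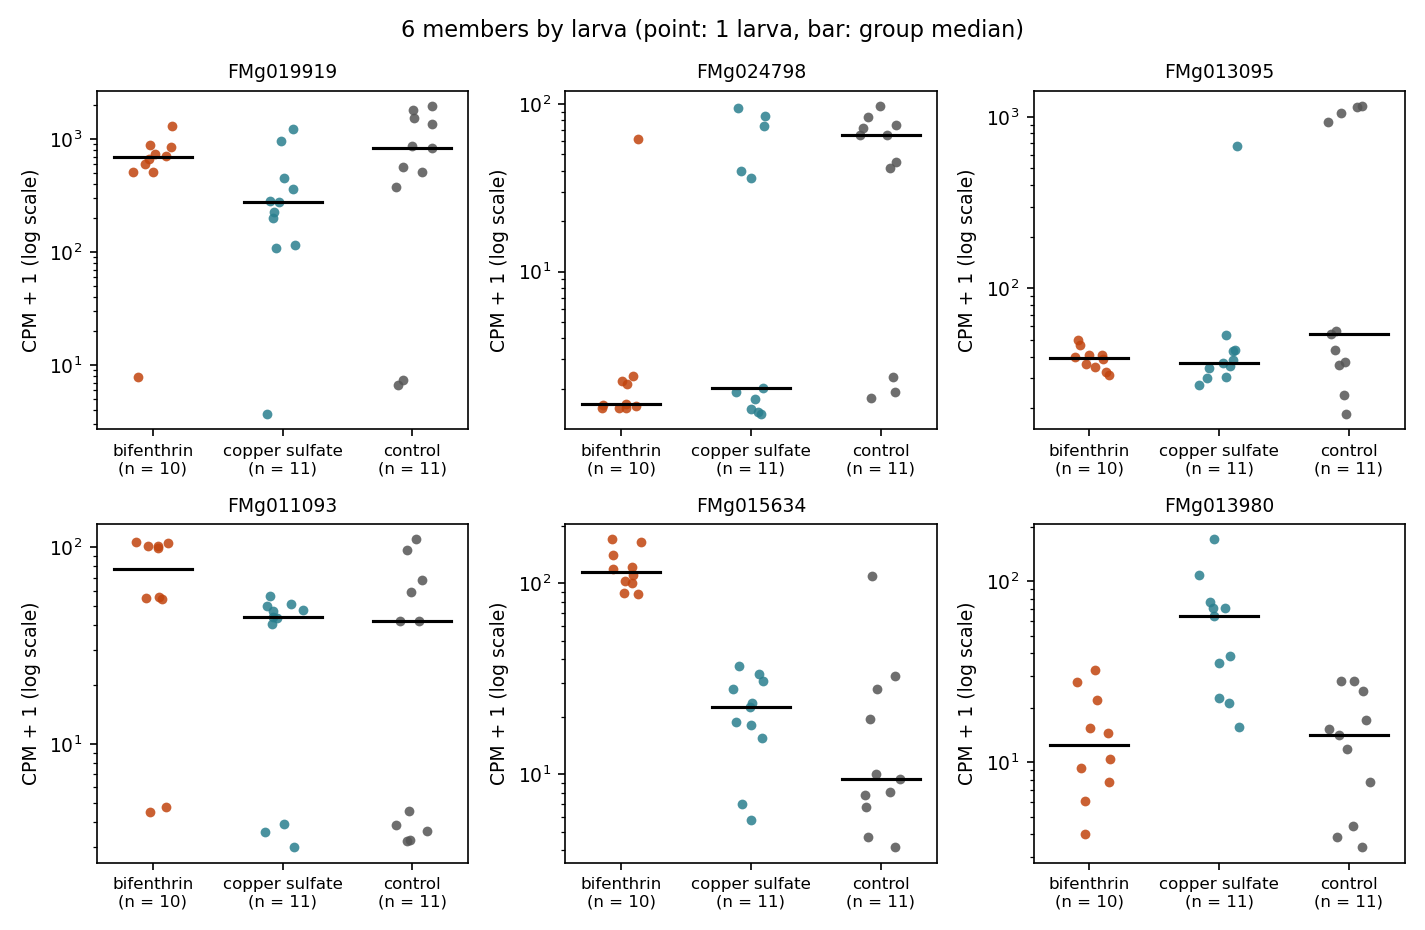
CPM + 1 on a log scale (vertical axes) of 6 members in each larva, by treatment (horizontal axes: 10 bifenthrin, 11 copper sulfate and 11 control larvae). Each point is 1 larva and each bar a group median. FMg019919 has 4 low larvae spread over the treatments, FMg024798 is high in 1 of 10 bifenthrin larvae and 8 of 11 controls, FMg013095 is high in 4 controls and 1 copper sulfate larva, and all bifenthrin larvae lie above every copper sulfate larva for FMg015634.

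Single controls moved members across the edge of the list. Leaving out the most influential control took 81 members below the threshold of 0.892, and the other 119 stayed above it. The SD falls whenever the most influential control is left out, so members near the edge pass below it easily, and those values may still lie well above the eligible median. Replicate 14 was that control for 22 of the 81, replicate 5 for 10, and replicates 4 and 10 for 9 each. Chosen anew without 1 control, the list kept from 178 (without replicate 14) to 191 (without replicate 11) of the 200 members. Replicate 3 was the highest control for 37 members (18.5%, beside 7.6% of the eligible models), and replicate 10 was the lowest for 22 (11%, beside 4.51%). Replicate 14 was the lowest for 48 members (24%), a share below its 28.1% of the eligible models.

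Beside the eligible models from which they were taken, the members differed in annotation and abundance. No protein accession was listed for 75 of them (37.5%), beside 853 of the eligible models (5.19%). The members were also somewhat less abundant, with a median mean count of 179 against 260, and 52% of them had a mean count under 200, beside 40.5% of the eligible models. The 75 without an accession were more variable in treated larvae than the 125 with one, with a median SD of 1.03 against 0.794 in the bifenthrin group and 1.03 against 0.883 in the copper sulfate group. Models without an accession were more variable over the eligible set as well, with medians of 0.275 against 0.202 in bifenthrin larvae. They were also less abundant, with a median mean count of 134 against 258 among members. Over the eligible set these medians were 150 and 267. The part of abundance in the difference in SD was not tested. A total of 27 members shared 13 accessions, led by Q6ZM17, which all 3 eligible models with that accession, FMg003565, FMg003567 and FMg003569, brought into the list. There were 25 members in 11 runs of consecutive model numbers, the longest of 3 models. Only 83 of the 26150 models in the count table carried an enzyme class number, and 0 of the 200 members did, so no pathway could be counted. The rule itself set limits on the mean count and set aside some accessions and enzyme classes, so these features are not independent of the choice.

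The members were variable in treated larvae too, whose SD the rule did not use. Their SD had a median of 0.829 in the bifenthrin group, 0.930 in the copper sulfate group and 1.16 in controls, beside 0.204, 0.239 and 0.242 over the eligible models. An SD over 0.5 was found for 152 members (76%, beside 3.98% of the eligible models) in bifenthrin larvae and for 183 (91.5%, beside 6.08%) in copper sulfate larvae. Of the 200 models most variable in bifenthrin larvae 112 were members, and of the 200 most variable in copper sulfate larvae 114 were. A list of 200 is 1.22% of the eligible models. A total of 84 members stood in both of these lists. The smaller median in treated larvae is no comparison with controls, since models picked for a large SD in a set of larvae will on average have a smaller SD in any other.

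**Figure D2:**
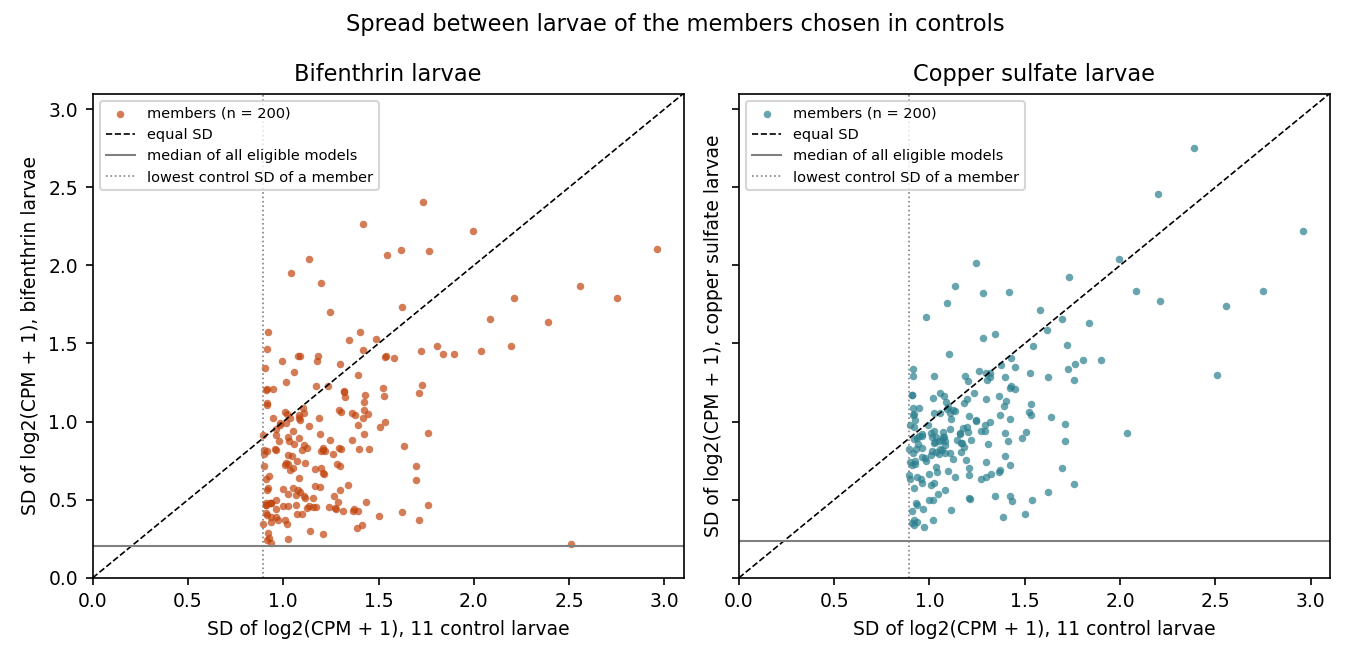
SD of log2(CPM + 1) over the 10 bifenthrin larvae (left, vertical axis) and the 11 copper sulfate larvae (right, vertical axis) against the SD over the 11 controls (horizontal axes) for the 200 members. Each point is a member, the dashed line marks equal SD, the solid line the median of the eligible models and the dotted line the lowest control SD of a member. All 200 members lie above the solid line in both panels, FMg013095 only just so in the left one, at 0.214 in bifenthrin larvae beside an eligible median of 0.204 and 2.51 for that member in controls.

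Bifenthrin and copper sulfate larvae, which entered the rule through the mean count alone, were compared in their spread by limma on the absolute deviations from each group's mean. This test called 4 of 16425 models (0.0244%) and 1 member, FMg025714, which carries no accession. On simulated normal values with a 4-fold SD planted in 200 models, it called only 16% of those models. Few calls therefore do not show that the spread was alike under both chemicals. FMg025714 had 18.6, 23.3 and 45.5 CPM in bifenthrin larvae (lowest, median, highest), 1.2, 19.6 and 61.7 CPM in copper sulfate larvae, and 1.67, 19.2 and 40.7 CPM in controls. Its SD of log2(CPM + 1) was 0.439 in the bifenthrin group and 1.82 in the copper sulfate group (limma adjusted p = 0.0432). The call was lost when any of bifenthrin replicates 1, 2, 7, 8, 10, 11, 13 and 14 or copper sulfate replicates 1, 2 and 4 was left out. The number of members called was 4 without bifenthrin replicate 5 and 2 without copper sulfate replicate 6 or 7. FMg025310 (A4QN70) came next, with SDs of 0.715 and 1.65 (limma adjusted p = 0.0556). At an unadjusted p under 0.05 there were 29 members and 1298 of all eligible models. Of the 200 members, 80 had the larger SD in bifenthrin larvae, a share that compares with 34.1% of the eligible models.

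Many members varied together across the controls. Clustering them by their correlation over the 11 controls gave 13 groups of at least 5 members, which held 146 members and left 54 in no group. The groups describe these controls and were not tested. For each larva, the level of a group is given below as the median over its members of the difference in log2(CPM + 1) from the control mean. In group 9 (7 members), control replicate 4 lay at -2.66 and all other controls between -0.47 and 0.78. In group 10 (6 members) the same larva was highest, at 2.86, followed by replicate 3 at 1.38. In group 2 (24 members), control replicate 14 lay at -2.13 and copper sulfate replicate 2 at -1.55. These larvae were also most often the lowest of their treatment over the eligible models.

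Group 3 holds 23 members, 17 of them without an accession, with FMg006276 (A2RUV7) in the lead. Its level ran from -0.75 to 1.54 in bifenthrin larvae, from -1.19 to 1.59 in copper sulfate larvae and from -1.36 to 1.73 in controls. The first principal component of the group took 60.8% of its variance in the bifenthrin group, 60.6% in the copper sulfate group and 69.7% in controls, although the members were joined by their controls alone. For the 26 members of group 1 these shares were 45.0%, 55.0% and 72.2%. Sets of few models reach large shares more easily than the eligible models as a whole, for which the shares were 19.5%, 26.8% and 28%.

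Group 7 (8 members) includes the 4 models led by FMg019919, and its level was lowest in the 4 larvae named for that model, at -2.10 in bifenthrin replicate 4, -2.56 in copper sulfate replicate 8 and -2.97 and -2.70 in control replicates 8 and 10. Group 8 (7 members) holds the 3 models with accession Q6ZM17. Its lead, FMg003567, had 6.85, 34.9 and 78.9 CPM in bifenthrin larvae (lowest, median, highest), 30.5, 60.8 and 98.0 CPM in copper sulfate larvae, and 13.1, 81.6 and 253 CPM in controls. Models that share an accession may share reads, so the likeness of their levels is not independent.

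**Figure D3:**
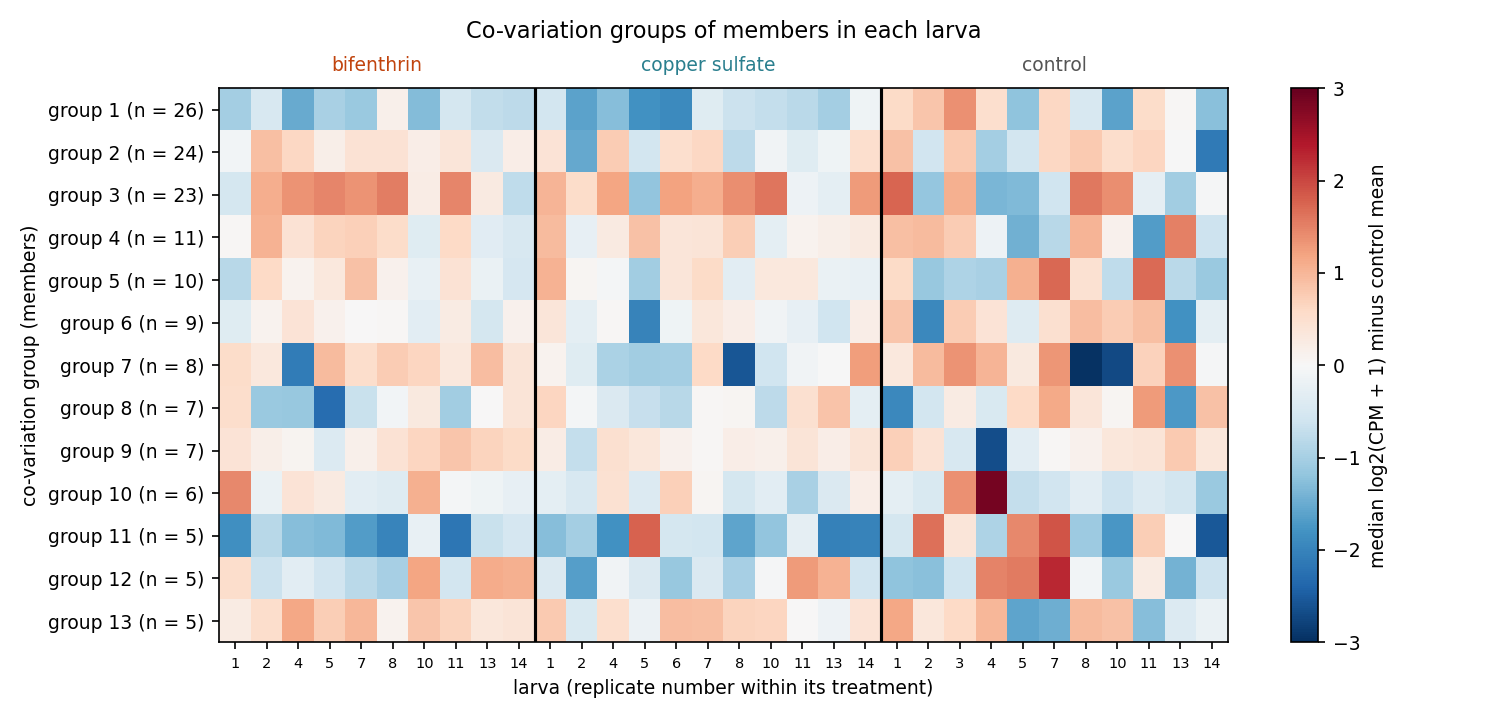
Level of the 13 co-variation groups (rows, with their number of members) in each larva (columns: bifenthrin, copper sulfate and control, numbered by replicate). Colour gives the median over a group's members of log2(CPM + 1) minus the control mean, blue for lower and red for higher. Group 1 is below 0 in 9 of 10 bifenthrin larvae, 11 of 11 copper sulfate larvae and 4 of 11 controls, and group 7 is lowest in 4 larvae from 3 treatments.

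Next, the mean level of the members was compared between treatments with edgeR's quasi-likelihood test over all 21174 genes that passed the abundance filter, with sequencing lane as a term. A model is called where its adjusted p is under 0.05. The comparisons of bifenthrin and of copper sulfate with control share the 11 controls, on which the members were chosen. Their calls and directions are therefore not independent of the choice or of each other. The larvae of bifenthrin against copper sulfate entered the rule through the mean count over all larvae and not through the SD. The fit, however, estimates the spread of each model from all larvae, controls included. The control spread that chose the members thus also enters the errors of bifenthrin against copper sulfate.

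In bifenthrin larvae against controls, 46 of 199 members were called (23.12%), beside 38.2% of all genes tested and 43.2% of the eligible models. Of the 46 members, 17 were higher (8.54%, beside 18% of all genes) and 29 lower (14.6%, beside 20.2%). The fitted differences were larger than usual and so were their errors: the median absolute log2 fold change was 0.65 for members and 0.24 for all genes, and the median SE was 0.452 and 0.123. A log2 fold change beyond 1 in either direction was found for 57 members (28.6%, beside 5.84%), and 42 of these were called. The direction of the calls depended on the setting. Within lane 6 there were 8 higher and 31 lower, within lane 7 there were 12 higher and 8 lower, and limma-voom gave 22 higher and 20 lower. Of all genes tested, 2618 were higher and 2660 lower within lane 6 (of 21260). Within lane 7 these counts were 1880 and 2175 (of 21243), and with limma-voom 3918 and 4155 (of 21174).

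The member with the smallest p among those higher in bifenthrin larvae was FMg015634 (Q801U5). It had 86.7, 114 and 169 CPM in bifenthrin larvae (lowest, median, highest), 4.72, 21.6 and 35.8 CPM in copper sulfate larvae, and 3.136, 8.43 and 108 CPM in controls. All bifenthrin larvae exceeded every copper sulfate larva and 10 of the 11 controls, and control replicate 4 lay within their range. The log2 fold change came to 2.66 ± 0.45 (SE, edgeR adjusted p = 1.2e-05) against control and 2.53 ± 0.44 (SE, edgeR adjusted p = 3.4e-05) against copper sulfate. Without control replicate 4 the value against control was 3.34. FMg014896 (A0A0R4IKG8) followed, with 11.3, 39.5 and 61.7 CPM in bifenthrin larvae, 4.84, 7.91 and 30.6 CPM in copper sulfate larvae, and 0, 7.13 and 12.2 CPM in controls. Bifenthrin and control larvae barely overlapped (2.62 ± 0.47 SE, edgeR adjusted p = 3.5e-05).

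Among the members lower in bifenthrin larvae, FMg017448 (A0A0R4II06) had the smallest p. It had 0.153, 0.942 and 5.47 CPM in bifenthrin larvae (lowest, median, highest), 0.194, 2.38 and 8.50 CPM in copper sulfate larvae, and 1.22, 11.9 and 27.9 CPM in controls. The ranges overlapped, and the median was lowest in bifenthrin larvae. The log2 fold change came to -3.07 ± 0.55 (SE, edgeR adjusted p = 3.1e-05) for bifenthrin and -1.97 ± 0.49 (SE, edgeR adjusted p = 0.0110) for copper sulfate, both against control. The copper sulfate call was lost within each lane alone, at -1.67 and -2.27. FMg015064 (Q9DF44) averaged 16.3 ± 9.97 CPM in bifenthrin larvae (SD, n = 10), 47.8 ± 23.2 CPM in copper sulfate larvae (SD, n = 11) and 53.6 ± 28.6 CPM in controls (SD, n = 11). It fell in bifenthrin larvae against control (-1.66 ± 0.36 SE, edgeR adjusted p = 0.000348) and against copper sulfate (-1.57 ± 0.36 SE, edgeR adjusted p = 0.000885). The second of these calls was lost within lane 6 alone, at -1.29.

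In copper sulfate larvae against controls, 20 of 199 members were called (10.1%), beside 5.58% of all genes tested and 6.31% of the eligible models. There were 5 higher (2.51%, beside 3.58%) and 15 lower (7.54%, beside 1.99%). The median absolute log2 fold change was 0.51 for members and 0.12 for all genes. The count of members depended on the larvae and the method: 4 were called within lane 6 and 0 within lane 7, where 33 members and 1752 genes had an unadjusted p under 0.05 in edgeR, and limma-voom called 12. The share of all genes called within a lane was lower as well, at 1.8% in lane 6 and 0.410% in lane 7. With limma-voom it was 5.51%. Leaving out single larvae gave 14 (without copper sulfate replicate 4) to 25 calls (without control replicate 10).

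FMg007264 (Q6PC86) had the smallest p among members higher in copper sulfate larvae. It had 14.7, 24.797 and 36.2 CPM in bifenthrin larvae (lowest, median, highest), 15.7, 25.0 and 35.7 CPM in copper sulfate larvae, and 0.952, 10.4 and 19.7 CPM in controls. The treated larvae lay mostly above the controls and overlapped them at the lower end. Relative to control its log2 fold change came to 1.269 ± 0.24 (SE, edgeR adjusted p = 8.1e-05) for bifenthrin and 1.199 ± 0.24 (SE, edgeR adjusted p = 0.00139) for copper sulfate. The copper sulfate call was lost within lane 7 alone, at 0.93. FMg013980 (A0A0R4I9J2) had 3.00, 11.5 and 31.1 CPM in bifenthrin larvae, 14.6, 63.2 and 169 CPM in copper sulfate larvae, and 2.39, 13.2 and 27.2 CPM in controls. It rose in copper sulfate larvae (2.22 ± 0.44 SE, edgeR adjusted p = 0.00145), while bifenthrin and control larvae covered nearly the same range (0.10 ± 0.45 SE, edgeR adjusted p = 0.882). Within lane 6 and lane 7 alone the copper sulfate values of FMg013980 were 2.04 and 2.32, and neither was called.

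FMg001358 (Q1A5L3) led the members lower in copper sulfate larvae. It averaged 26.37 ± 13.4 CPM in bifenthrin larvae (SD, n = 10), 9.18 ± 3.45 CPM in copper sulfate larvae (SD, n = 11) and 28.6 ± 21.6 CPM in controls (SD, n = 11). The copper sulfate larvae lay between 5.94 and 17.4 CPM and overlapped the lowest controls, which started at 9.53 CPM (-1.52 ± 0.31 SE, edgeR adjusted p = 0.00153). FMg021974 (A9C458) had 21.12, 44.0 and 104 CPM in bifenthrin larvae (lowest, median, highest), 12.2, 43.4 and 104 CPM in copper sulfate larvae, and 29.8, 128 and 354 CPM in controls. Relative to control its log2 fold change came to -1.35 ± 0.38 (SE, edgeR adjusted p = 0.00520) for bifenthrin and -1.49 ± 0.37 (SE, edgeR adjusted p = 0.0103) for copper sulfate. Within lane 7 alone these were -0.45 and -1.004, and neither was called. The copper sulfate call was also lost within lane 6 alone, at -1.797. For FMg001358 it was lost within lane 7 alone, at -1.28.

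In bifenthrin larvae against copper sulfate larvae, 22 of 199 members were called (11.1%), beside 32% of all genes tested and 36.8% of the eligible models. There were 15 higher (7.54%, beside 14.9%) and 7 lower (3.52%, where 3621 of all 21174 genes were lower). With only these 2 groups fitted, 25 of 196 members were called, beside 32.7% of all genes. That fit uses no control, and 42 members and 8613 genes had an unadjusted p under 0.05 in edgeR. In the fit of all larvae these counts were 29 and 8630. The errors in the fit of all larvae include the spread between controls, by which the members were chosen. The share of members called there is therefore not independent of the choice. The part of the controls in the difference between the fits was not tested. Within lane 6 there were 6 higher and 7 lower members, and within lane 7 there were 12 higher and 4 lower. Of all genes, 1439 were higher and 1191 lower within lane 6 (of 21260), and 1784 and 1999 within lane 7 (of 21243). FMg003403, without an accession, had the smallest p. It had 0.231, 8.00 and 12.6 CPM in bifenthrin larvae (lowest, median, highest), 0, 0.642 and 1.89 CPM in copper sulfate larvae, and 0.181, 2.66 and 10.0 CPM in controls. All but the lowest bifenthrin larva, replicate 4, lay above the copper sulfate larvae, and the controls lay across both ranges (3.17 ± 0.55 SE, edgeR adjusted p = 2.8e-05). FMg013980, described above, was the member with the smallest p among those lower in bifenthrin larvae (-2.12 ± 0.46 SE, edgeR adjusted p = 0.000552), and it was not called within lane 6 alone, at -1.57.

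**Figure D4:**
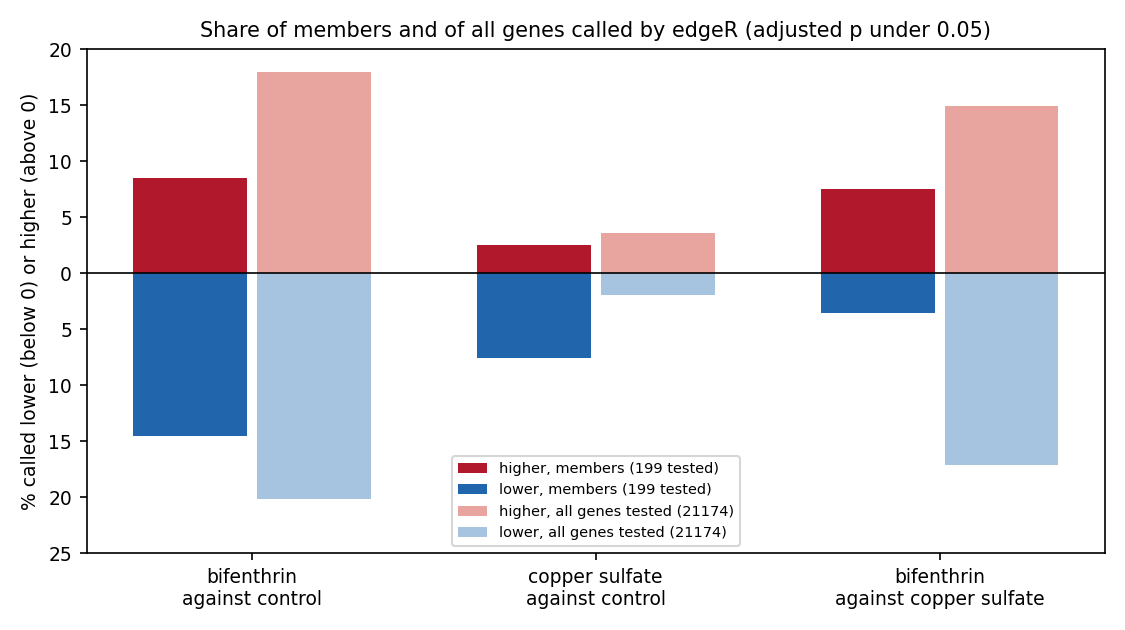
Share of the 199 tested members (dark bars) and of all 21174 genes tested (pale bars) that edgeR called higher (above 0) or lower (below 0) in the first-named treatment, in percent, for each comparison. In bifenthrin against control 8.54% of members were higher and 14.6% lower, beside 18% and 20.2% of all genes, and in copper sulfate against control 7.54% of members were lower, beside 1.99%.

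Of the 29 members lower in bifenthrin larvae and the 15 lower in copper sulfate larvae, 14 and 9 belonged to co-variation group 1, the largest with 26 members, 4 of them without an accession. Its level ran from -1.52 to 0.15 in bifenthrin larvae, from -1.92 to -0.12 in copper sulfate larvae and from -1.62 to 1.37 in controls. It lay below 0 in 9 of 10 bifenthrin larvae, in 11 of 11 copper sulfate larvae and in 4 of 11 controls, namely replicates 5, 8, 10 and 14. These low controls thus lay within the range of the treated larvae, and replicate 3 was the highest of all larvae. Against control, 14 of the 26 members were lower and 0 higher in bifenthrin larvae, and 9 were lower and 0 higher in copper sulfate larvae. Of all genes tested, 20.2% were lower for bifenthrin and 1.99% for copper sulfate. The median log2 fold change was -1.08 for bifenthrin and -1.16 for copper sulfate. Between the chemicals, 5 members were higher and 1 lower in bifenthrin larvae, with a median of 0.05. In that comparison 3147 of all 21174 genes tested were higher and 3621 lower. Because the members were joined by their correlation over the controls, their calls are not independent of each other. The group is also compared with the same controls that formed it. How far its shared direction against control reflects that choice was not tested.

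The calls in group 1 depended on the larvae and the method. For bifenthrin, 17 members were lower within lane 6 and 0 within lane 7, and limma-voom gave 2 higher and 10 lower. Of all genes, 2660 of 21260 were lower within lane 6 and 2175 of 21243 within lane 7. With limma-voom 3918 of 21174 were higher and 4155 lower. For copper sulfate there were 2 lower within lane 6, 0 within lane 7, 4 with limma-voom and 5 with only the 2 groups compared. Of all genes these settings called 79 of 21260, 10 of 21243, 420 of 21174 and 347 of 20703 lower. In group 1 there were 4 lower when control replicate 2, control replicate 3 or copper sulfate replicate 4 was left out, and 5 without copper sulfate replicate 6. Without control replicate 14 and copper sulfate replicate 2 the counts were also 14 and 9. FMg020257 (F1RAH3), the lead by control SD, had 0.361, 1.39 and 2.45 CPM in bifenthrin larvae (lowest, median, highest), 0.623, 1.099 and 12.6 CPM in copper sulfate larvae, and 0.0603, 2.1 and 29.5 CPM in controls. Its mean was lower in bifenthrin larvae (-2.63 ± 0.69 SE, edgeR adjusted p = 0.00255). For copper sulfate the difference missed the threshold (-1.81 ± 0.64 SE, edgeR adjusted p = 0.0967). Only 2 of 42 alternatives passed, at -2.52 without copper sulfate replicate 5, the highest larva of its treatment, and at -2.01 without control replicate 14. The copper sulfate value was -0.79 with limma-voom (adjusted p = 0.626) and -0.98 within lane 7 alone (edgeR adjusted p = 0.887). The bifenthrin call was lost with limma-voom (-1.14, adjusted p = 0.28) and within lane 7 alone (-2.39, edgeR adjusted p = 0.115). The controls again included the lowest larva, replicate 14, as well as the highest.

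**Figure D5:**
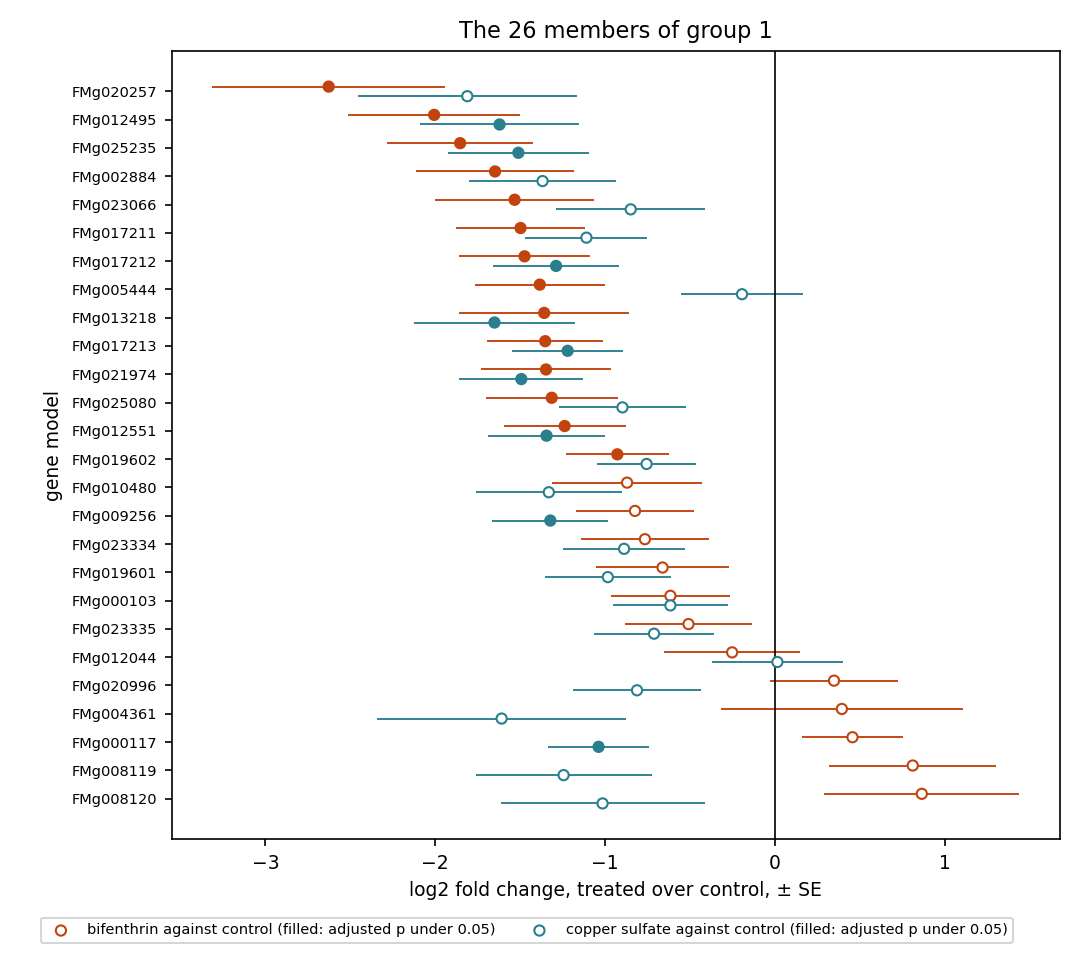
Log2 fold change of each of the 26 members of group 1 against control (horizontal axis, treated over control) with its SE from edgeR, for bifenthrin (upper point of each pair) and copper sulfate (lower point). Filled points have an adjusted p under 0.05. For bifenthrin 14 points are filled and for copper sulfate 9, all left of 0.

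Group 11 holds 5 members and is led by FMg013095. It too was formed from the controls with which it is compared, so its direction is not independent of the choice. Its members vary together, and FMg013095 and FMg001010 were high in the same control replicates 2, 5, 7 and 11. The 5 calls below therefore rest partly on the same few controls and do not count as separate results. All 5 were lower in bifenthrin larvae against control, with log2 fold changes from -3.11 to -1.303, beside 20.2% of all genes, and 1 was lower in copper sulfate larvae (1.99% of all genes), with a range from -2.23 to -0.95 over the group. For FMg013095 itself the value was -3.11 ± 0.75 (SE, edgeR adjusted p = 0.00122) for bifenthrin and -2.23 ± 0.69 (SE, edgeR adjusted p = 0.0503) for copper sulfate. Without copper sulfate replicate 5, the only high larva of its treatment, the copper sulfate value was -3.33 and passed (edgeR adjusted p = 0.00110). That larva was singled out by its own level, so the smaller p-value is no separate support for a difference. The copper sulfate value also passed with DESeq2, without both control replicate 14 and copper sulfate replicate 2, and when any of control replicates 1, 3, 4, 8, 10, 13 and 14 was left out. Those are the controls in which this model was low. In all, 10 of 42 alternatives passed. It was not called with limma-voom (-1.40, adjusted p = 0.246) or a replicate block (-1.77, edgeR adjusted p = 0.200). Within lane 6 and lane 7 alone it was not called either, at -2.44 and -2.17. Without control replicate 7 the values were -2.02 for bifenthrin and -1.42 for copper sulfate. The difference between bifenthrin and copper sulfate larvae was not called (-0.88 ± 0.72 SE, edgeR adjusted p = 0.384). Within lane 6, 0 of the 5 were called for bifenthrin, and within lane 7 there were 2, with FMg013095 at -2.38 and -4.08. With limma-voom 3 of the 5 were called, and FMg013095 was not, at -1.68, and 3 were called without control replicate 2 or 7.

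Sequencing lane was the technical batch used here. The column labels of the counts hold a further mark that changes with lane, so lane cannot be told apart from what that mark stands for. Larvae with the same replicate number shared a lane and were numbered consecutively in those labels across treatments. What this order stands for is not given. Lane 6 held 5 bifenthrin, 5 copper sulfate and 6 control larvae and lane 7 held 5, 6 and 5. Between lane 7 and lane 6, edgeR called 0 of 199 members and 0% of all genes, with 5 members and 2516 genes at an unadjusted p under 0.05. Limma-voom also called 0, with 12 members and 2608 genes at that level.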

How the data were processed

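The authors deposited 1 table of raw counts per gene model and larva, not normalized. Tools named in the submitters' processing notes are limma, STAR and bcl2fastq 2.19.1, without roles. Genome build, annotation, counting tool and the handling of reads that match several models were not given in the sources used here. Per the labels' protocols, each library took 250 ng of a larva's total RNA.

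Members and lists were chosen with earlier results of these data known. The named models are those with the largest control SD, the smallest p per comparison and direction, the leads of groups and accessions and the edges of the threshold. Since the table gives no names, fewer were printed than that rule allows. A reference table of symbols matched 0 of 26150 models. The fixed lists of enzyme classes matched 52 models, of which 0 were eligible, so a count of 0 members was set in advance. Gaps between levels were counted after the data were seen.

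edgeR 4.0.16 (filterByExpr, TMM, quasi-likelihood test, Benjamini-Hochberg adjustment) was fitted to all 32 larvae with group and lane. The SE is the absolute log2 fold change divided by the square root of F. Spread was tested with limma 3.58.1, and groups came from average linkage at height 0.5. Tests were checked on simulated data with changes planted in models drawn at random. Those data held no larvae set at separate levels and no models chosen for a large control SD. They therefore do not check the p-values of such members.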

Additional observations from a re-analysis of the deposited data

Results flagged for a closer look

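The rule for naming covers 42 members, not all of them printed above. Of these, 5 (11.9%) had a bifenthrin larva that stood far from the other 9. The gap to its neighbour was above the critical share of the whole range for 10 samples (Dixon's test). FMg024798 reached 60.5 CPM in bifenthrin replicate 5, against 1.37 CPM in the next larva. FMg020300, which shares its accession, reached 37.5 CPM in the same larva, against 0.787 CPM in the next. FMg013561 (Q1LW01) reached 125 CPM in replicate 2, against 56.2 CPM in the next. FMg017448 reached 5.47 CPM in replicate 4, against 1.89 CPM in the next. FMg001358 reached 58.1 CPM in replicate 8, against 33.7 CPM in the next. Chance marks about 1 in 20 groups, and over the eligible models 5.79% had such a larva. Among all 200 members 30 had one (15%), a share that the choice of variable models favours. Groups of 11 larvae were not examined in this way.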

How the results depend on the processing

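For copper sulfate against control, the 20 members called became 7 with a replicate block, 13 with only the 2 groups compared, 12 with limma-voom, 4 in lane 6 alone and 0 in lane 7 alone, and leaving out 1 larva gave 14 to 25. For bifenthrin against control, lane 7 alone gave 20 in place of 46, and leaving out 1 larva gave 40 to 55. For bifenthrin against copper sulfate, lane 6 alone gave 13 in place of 22, and leaving out 1 larva gave 18 to 24. Fits within a lane use fewer larvae. For the other changes the cause was not tested.

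The replicate block kept 46 calls for bifenthrin against control, now 23 higher and 23 lower, of which 37 were the same members, and gave 20 for bifenthrin against copper sulfate. In copper sulfate larvae against control it gave 1 lower member of group 1 in place of 9 and no call for FMg017448 (-1.77, edgeR adjusted p = 0.123) or FMg021974 (-1.17, edgeR adjusted p = 0.0638), and in group 11 it gave 2 in place of 5 for bifenthrin against control. Larvae with the same number shared a lane and were consecutive in the column labels, so a shared handling step cannot be told from the labels. After group and lane means were removed, correlations between them ran from -0.28 to 0.14 over all genes tested. At most 1 of 10 pairs correlated best with its own number. These correlations were not taken over the members alone. Whether larvae with the same number share part of the members' levels was not tested.

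The spread test called 1 member. It called 2 with TMM-scaled CPM, with a pseudocount of 0.5 and with a mean count of at least 200, 0 on residuals after group and lane means, 0 without control replicate 14 and copper sulfate replicate 2 (added later), and 0 to 4 when 1 larva was left out. Without those 2 larvae, 48, 22 and 22 members were called in the comparisons of means. Members among the 200 most variable numbered 103 to 114 in bifenthrin larvae and 108 to 119 in copper sulfate larvae when 1 larva was left out. Directions were followed for the log2 fold changes printed in the text with an SE. None that was called, in the report's fit or under an alternative, reversed under the alternatives run.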
